A study of Mus musculus with 48 samples.

Results

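The genes described here encode the subunits of the mitochondrial respiratory chain and of ATP synthase, the machinery of oxidative phosphorylation. Members were taken by name from the deposited table of transformed expression values, which lists 13617 symbols: all genes whose symbol starts with Ndufa, Ndufb, Ndufc, Ndufs, Ndufv, Uqcr, Atp5, Cox4i, Cox5, Cox6, Cox7 or Cox8, the 4 Sdh genes, Cyc1, and the protein genes of the mitochondrial genome, leaving out the Ndufaf assembly factors and pseudogenes. That rule goes by name and uses no test result or group difference. It takes only genes kept in the transformed table, so low expression could leave a gene out. It gave 94 genes of the 49315 in the count table, 81 encoded in the nucleus and 13 in mitochondrial DNA, and all 94 passed the filter on low counts. Of the nuclear members 36 belong to complex I, 4 to complex II, 9 to complex III, 14 to complex IV and 18 to complex V, counting Ndufa4 with complex IV. The mitochondrial members are 7 subunits of complex I, 1 of complex III, 3 of complex IV and 2 of complex V. A further 11 genes with such names were in the count table but not in the transformed table, so they are no members. Atp5s, with 2342 counts over all libraries, was the most abundant of these, and Cox4i2, Ndufa4l2, Cox6a2 and Cox8b had 14, 3, 258 and 2 counts.

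The cells were mouse macrophages grown from bone marrow for 7 days with macrophage colony-stimulating factor (M-CSF), then rested overnight. Lyn is a Src-family tyrosine kinase made as a longer isoform A and a shorter isoform B by alternative splicing. Marrow came from wild-type mice (WT), mice without isoform A (LynAKO), mice without isoform B (LynBKO) and mice without either (LynKO). Cells of each genotype were kept for 2 h in medium without M-CSF (NT), or given LPS (bacterial lipopolysaccharide, sensed by TLR4) at 2 ng/mL, or the synthetic TLR7 agonist resiquimod (R848) at 20 ng/mL. All groups shared the M-CSF differentiation and the overnight rest. With 4 mice per genotype, males and females in equal number, this made 12 groups of 4 libraries, 48 in all. The mice as a whole, not only their macrophages, carried the Lyn genotypes. Libraries held 14974764 to 23321447 counts on genes. Lyn itself stood at 177 ± 10.4 CPM (counts normalised to library size, here with TMM factors; mean ± SD, n = 4) in untreated WT, and at 118 ± 11.5, 125 ± 6.38 and 67.6 ± 4.15 in untreated LynAKO, LynBKO and LynKO, so reads on the gene remained in LynKO at a lower level. The untreated LynBKO and LynKO libraries of mouse 4 held transcripts of both sexes, so results were also computed without them. All 10 macrophage markers examined were present in the libraries, at a summed 23994 to 45606 CPM.

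Electrons from NADH enter the chain at complex I and those from succinate at complex II, pass through complex III and cytochrome c to oxygen at complex IV, and the proton gradient made on the way drives ATP synthase, complex V. Complex II is encoded in the nucleus alone, while the other complexes are mosaics of subunits made in the cytosol and subunits made inside the mitochondrion from a small circular genome. In macrophages, Toll-like receptor ligands are known to shift energy metabolism towards glycolysis over hours, and succinate oxidation and reverse electron flow through complex I are known sources of signalling oxygen radicals.

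The mitochondrial members differed in how well these libraries could count them, and the sequences show where. A stretch of mouse chromosome 1 holds a copy of part of the mitochondrial genome, annotated as a row of pseudogenes from Gm28439 to Gm29216 (GRCm38, chr1:24611535-24616197, minus strand). Within mt-Atp6, a subunit of the proton channel of complex V, 529 of 532 windows of 150 bases (the read length) also occurred in another annotated transcript. The aligned 678 bases of mt-Atp6 and its chromosome 1 counterpart Gm10925 had 0 mismatches. A stretch of 60 bases from the middle of both is shown because no read inside it can be assigned to either place; the bases lie at chrMT:8227-8286 (plus strand, within the mt-Atp6 coding exon) and chr1:24614292-24614351 (minus strand, within Gm10925):
mt-Atp6: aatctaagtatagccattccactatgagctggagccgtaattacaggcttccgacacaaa
Gm10925: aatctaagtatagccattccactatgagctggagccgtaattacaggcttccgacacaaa

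The share of such windows was 99.8% in mt-Co3, 99.4% in mt-Co2 and mt-Atp6, 98.0% in mt-Nd4l and 97.0% in mt-Nd3. These 5 genes had 1077 (mt-Nd4l) to 4251 (mt-Nd3) counts over all 48 libraries. In mt-Atp8, which overlaps mt-Atp6, 0 of 55 windows were shared and 504 counts were found. Only annotated transcripts were searched. On chromosome 1 the copies of its neighbours mt-Atp6 (Gm10925) and mt-Co2 (Gm28661) flank a stretch with no annotated pseudogene. The 0 therefore does not show that mt-Atp8 lies outside the copy. The other 7 mitochondrial members had 331211 (mt-Nd6) to 7359124 (mt-Co1) counts, with 59.2% of windows shared in mt-Nd4, 23.6% in mt-Co1 and 0 in mt-Cytb, mt-Nd1, mt-Nd2, mt-Nd5 and mt-Nd6. How reads with several matches were counted is not given in the sources used here. Values of the 6 low genes are therefore uncertain and are given apart. The 7 chromosome 1 pseudogenes themselves had 296 to 2856 counts.

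**Figure D1:**
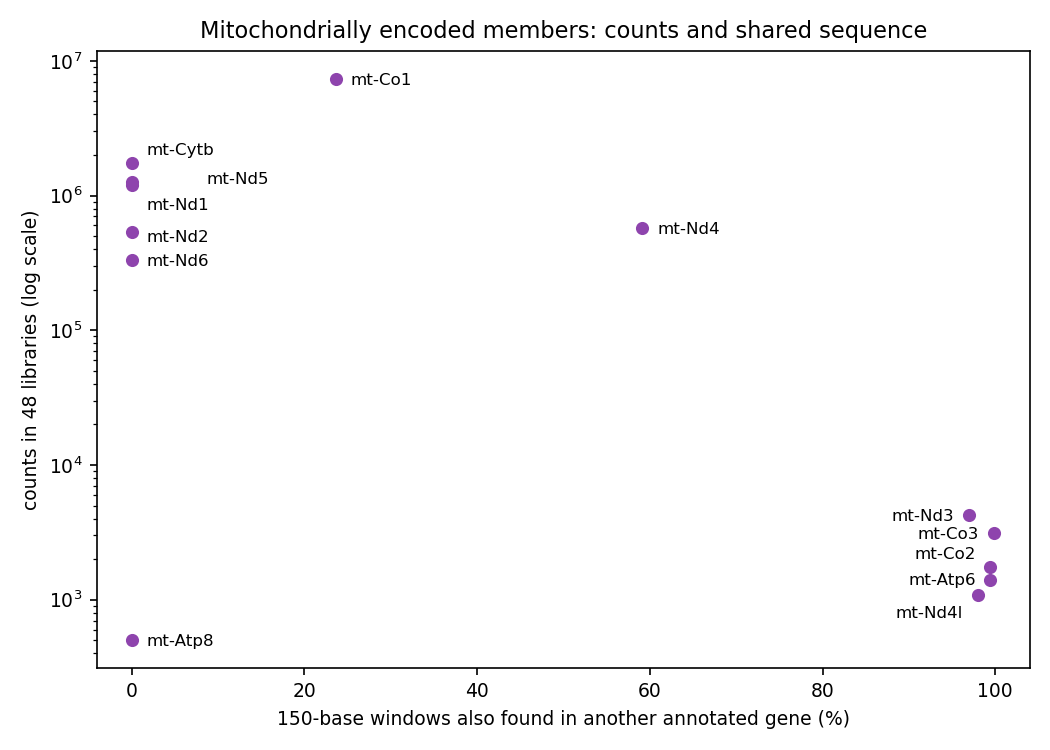
Each point is a mitochondrially encoded member. The horizontal axis is the percentage of its 150-base windows that also occur in another annotated transcript, and the vertical axis (log scale) its counts summed over the 48 libraries. The 5 genes with 97.0% to 99.8% shared windows, and mt-Atp8, hold 504 to 4251 counts, and the other 7 hold 331211 to 7359124. For mt-Atp8 the value of 0 covers annotated transcripts only and does not place it outside the chromosome 1 copy.

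Nuclear members shared less sequence, with the most in Atp5mc2 (33.1% of windows), Ndufa13 (20.5%) and Atp5po (17.2%). Ndufb6 overlapped Smim27, Atp5if1 overlapped Gm12999 and Ndufa13 overlapped Tssk6 on the opposite strand, over 39%, 33.7% and 30% of their exon bases. The strand setting of the counting step is also not given there, and the values of these genes are uncertain to that extent.

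The sequence before the transcription start was available for 67 members (RefSeq, GRCm38.p6, 250 bases before the start). Nuclear respiratory chain genes are textbook targets of NRF1, which binds GCGCA followed by its reverse complement, of GABP and other ETS factors (CCGGAAG), of YY1 (AAGATGGC) and of estrogen-related receptors (TCAAGGTCA), all searched on both strands. The NRF1 letters were found in 4 of 67 members (5.97%), Atp5mc2, Atp5me, Cox6a1 and Ndufa11, and in 0.877% of 27025 promoters of all genes. The GABP/ETS letters were found in 12 members (17.9%) against 7.83%, the YY1 letters in 1 member (Atp5pf, 1.49%) against 1.83%, and the receptor letters in 1 member (Atp5mc3, 1.49%) against 0.422%. A match is no evidence of binding, and its absence says only that these letters are not in the window. Most of the 67 members had none of the 4 motifs. With matches in capitals, the promoters shown are those of a member with both the NRF1 and the GABP/ETS letters (Cox6a1, chr5:115348959-115349208, minus strand), a member with the NRF1 letters (Ndufa11, chr17:56717512-56717761, plus strand), and 2 of the members with none, picked because their levels went opposite ways under the ligands (Atp5f1b, chr10:128083057-128083306, plus strand, and Ndufv3, chr17:31519865-31520114, plus strand):
Cox6a1: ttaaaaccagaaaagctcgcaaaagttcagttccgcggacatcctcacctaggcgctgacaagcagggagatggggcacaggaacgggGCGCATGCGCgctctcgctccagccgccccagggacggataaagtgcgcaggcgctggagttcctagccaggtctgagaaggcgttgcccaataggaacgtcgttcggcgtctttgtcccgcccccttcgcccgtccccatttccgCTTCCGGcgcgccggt
Ndufa11: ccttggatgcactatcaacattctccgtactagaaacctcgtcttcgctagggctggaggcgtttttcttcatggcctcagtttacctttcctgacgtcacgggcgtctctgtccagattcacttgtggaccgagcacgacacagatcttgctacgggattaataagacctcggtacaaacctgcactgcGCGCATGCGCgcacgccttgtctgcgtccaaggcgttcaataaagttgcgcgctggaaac
Atp5f1b: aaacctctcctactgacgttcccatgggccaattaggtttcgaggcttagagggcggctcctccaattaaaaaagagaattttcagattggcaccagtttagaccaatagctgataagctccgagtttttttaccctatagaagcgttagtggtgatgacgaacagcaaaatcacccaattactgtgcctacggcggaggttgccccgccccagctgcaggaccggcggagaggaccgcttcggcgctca
Ndufv3: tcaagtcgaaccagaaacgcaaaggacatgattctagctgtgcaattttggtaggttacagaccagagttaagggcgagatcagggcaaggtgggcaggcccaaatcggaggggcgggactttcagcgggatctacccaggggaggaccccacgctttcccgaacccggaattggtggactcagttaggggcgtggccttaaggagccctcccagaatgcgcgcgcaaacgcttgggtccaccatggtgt

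In untreated WT macrophages, levels divided by exon length spanned from mt-Co1 at 4843 ± 202 CPM per kb (SD, n = 4) to Cox6b2, a subunit isoform of complex IV known from testis, at 0.787. The 7 mitochondrial members with high counts were the most abundant: mt-Cytb stood at 1593 ± 111 CPM per kb, mt-Nd1 at 1300.2 ± 40.5, mt-Nd6 at 739.8 ± 69.1, mt-Nd5 at 652 ± 88.7, mt-Nd2 at 527 ± 42.4 and mt-Nd4 at 458 ± 26.2. The neighbouring levels of mt-Nd6 and mt-Nd5 lay within their spread of each other. mt-Nd6 lies on the opposite strand and overlaps mt-Nd5 over 2.7% of its exon bases. The strand setting of the counting step is not given, so the level of mt-Nd6 is uncertain. The most abundant nuclear members per kb were Cox6a1 (257 ± 31.9) and Cox4i1 (246 ± 38.1), also not separated beyond their spread, then Cox8a (193 ± 24.2) and Atp5f1a (148 ± 2.39). The mitochondrial members together took 1.47% to 1.86% of all counts in NT libraries and the nuclear ones 0.68% to 0.884%. In LPS libraries these shares were 1.02% to 1.67% and 0.54% to 0.63%, and in R848 libraries 1.02% to 1.60% and 0.544% to 0.70%. The nuclear shares of every LPS library thus lay under those of every NT library.

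These smaller shares set how every direction below has to be read. With either ligand the median gene had a smaller share of the library: without scaling factors the median log2 difference of all 13986 genes tested moved by -0.51 to -0.44 for LPS against NT over the 4 genotypes, -0.37 to -0.30 for R848 against NT and -0.15 to -0.14 for LPS against R848. Scaling by TMM (trimmed mean of M values), used for all values below unless said otherwise, sets the typical gene to about 0. "Higher" and "lower" therefore mean relative to the typical gene. By share of the library, 90 to 94 of the 94 members were below 0 in each of the 8 ligand comparisons with NT, and the members called higher by TMM lay below 0 there too, except Atp5f1b in the 3 knockouts (both ligands), Atp5mk in LynBKO with LPS and in LynKO with R848, Uqcrfs1 in LynKO (both ligands), mt-Co3 in LynAKO with LPS and mt-Nd4l in LynKO with LPS. Members called lower were below 0 on both scales. In bulk RNA, fewer cells of a type and less RNA per cell cannot be told apart, and a change of the total RNA per cell would not be seen on either scale.

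After 2 h of LPS the respiratory chain genes stayed close to the typical gene while much of the transcriptome moved. Relative to the typical gene, though mostly not as a share of the library, members of ATP synthase, complexes III and IV and several mitochondrially encoded mRNAs were higher, and a few complex I and II subunits were lower. In WT, 12 members were called higher and 8 lower (edgeR quasi-likelihood test, Benjamini-Hochberg adjusted p under 0.05 over all genes), beside 31.5% of all genes called higher and 30.0% called lower; all 12 of the higher ones were below 0 without scaling factors. In LynAKO 15 were higher and 3 lower (all genes 30.4% and 30.3%), in LynBKO 37 and 3 (33.9% and 33.4%), and in LynKO 20 and 3 (31.0% and 30.7%). Without scaling factors 13 of these 15, 35 of 37 and 17 of 20 lay below 0. The median log2 difference of the 94 members was 0.06, 0.07, 0.13 and 0.10 in the 4 genotypes. It was 0.04, 0.04, 0.11 and 0.09 over the nuclear members and 0.19, 0.28, 0.25 and 0.25 over the mitochondrial ones, while that of all genes was -0.05 to 0. Between 0 and 3 members moved by over 0.5 on the log2 scale in any ligand comparison with NT (at most 3.19%), against 53.5% to 55.8% of all genes for LPS and 47.4% to 51.5% for R848.

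Calls recurred across genotypes, which share no libraries. LPS left 10 members higher relative to the typical gene in all 4 genotypes: Atp5f1a, Atp5f1b, Atp5mc3 and Atp5pb of complex V, Uqcrfs1 and Uqcrc1 of complex III, Cox6c and Cox7a2 of complex IV, and mt-Co1 and mt-Nd5. That compares with 26.5% of all genes higher in all 4. Ndufv3 and Sdhb were lower in all 4, against 23.4% of all genes. No call was made in any genotype for 46 of the 94 members, against 22.8% of all genes, and no member was called in opposite directions. With each replicate number left out in turn (1 to 4), the WT count of 20 became 17, 7, 9 and 15, the LynAKO count of 18 became 11, 10, 9 and 28, the LynBKO count of 40 became 20, 36, 35 and 32, and the LynKO count of 23 became 14, 15, 15 and 37. In LynBKO numbers 2 and 3 carry exchanged sex labels in NT. Leaving out a number there, here and below, may therefore drop libraries of different mice. With mouse as a block the counts were 37 in LynAKO and 37 in LynKO.

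**Figure D2:**
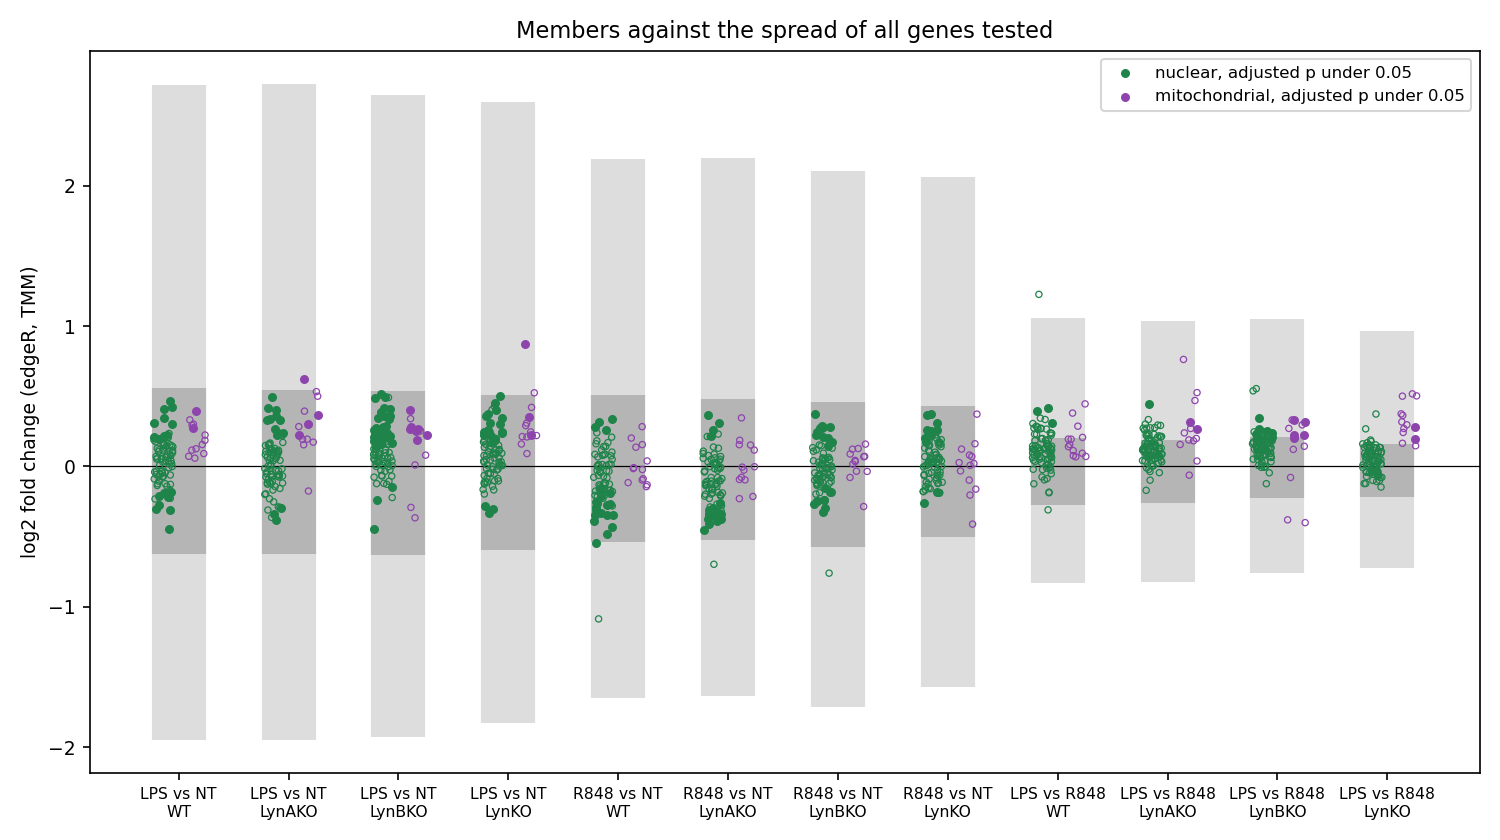
For each of 12 ligand comparisons, points show the 94 members by their log2 difference relative to the typical gene (TMM scaling); filled points passed an adjusted p of 0.05. Light grey spans the 5th to 95th percentile and dark grey the 25th to 75th percentile of all genes tested. Members lie in a narrow band around 0, with Atp5f1b and Uqcrfs1 near the top of the nuclear members for LPS and Ndufv3 at their bottom; without scaling factors 90 to 94 of 94 lie below 0 against NT.

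In ATP synthase 4, 5, 12 and 6 of 18 nuclear members were higher after LPS in WT, LynAKO, LynBKO and LynKO (22.2%, 27.8%, 66.7% and 33.3%, beside 31.5%, 30.4%, 33.9% and 31.0% of all genes), and 0 were lower. Atp5f1b (ENSMUSG00000025393), the catalytic beta subunit, stood at 444, 432, 439 and 439 CPM in the 4 untreated WT libraries, 605, 574, 585 and 574 with LPS and 518, 508, 543 and 607 with R848. Every treated library was above every untreated one. The log2 difference for LPS was 0.43 ± 0.07 (SE), edgeR adjusted p = 5.6e-05, and 0.49, 0.50 and 0.45 in the knockouts; without scaling factors these 4 values were -0.09, 0.00, 0.00 and 0.01. For R848 it was 0.34, 0.36, 0.38 and 0.36, each past the threshold. Its share of the library was thus nearly level while that of the typical gene was smaller.

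Atp5f1a (ENSMUSG00000025428), the alpha subunit that alternates with beta in the catalytic head, was at 461, 464, 476 and 459 CPM in untreated WT, 658, 584, 598 and 606 with LPS and 564, 546, 542 and 562 with R848, again with no overlap. Its log2 differences for LPS were 0.41, 0.42, 0.41 and 0.41, with SE 0.07 in WT (edgeR adjusted p = 4.1e-05). The other head subunits did not follow: Atp5f1c (gamma, the rotor shaft) was at -0.06 and Atp5f1d (delta) at -0.00 in WT, neither passing the test in any genotype. Atp5mc3, 1 of 3 genes for the ring that carries protons, was higher with LPS in all 4 genotypes (0.35, 0.33, 0.39 and 0.36 relative to the typical gene, below 0 without scaling factors), while its paralogue Atp5mc2 stood at 0.05, -0.08, -0.07 and -0.02 and did not pass. Atp5pb, of the peripheral stalk, was also higher in all 4, by 0.20 to 0.34. Atp5mk, a small membrane subunit of the enzyme, was higher in the 3 knockouts, by 0.33 to 0.51.

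Atp5if1 (ENSMUSG00000054428), the inhibitor that blocks ATP synthase from running backwards, was the only complex V member called between the ligands in WT. It stood at 105, 98.8, 89.3 and 93.2 CPM in untreated WT, 95.9, 86.9, 94.4 and 96.8 with LPS and 70.4, 65.2, 64.1 and 81.4 with R848. The R848 libraries lay below all NT and all LPS libraries, and the latter overlapped. The log2 difference for R848 was -0.43 ± 0.09 (SE), edgeR adjusted p = 0.00033 in WT, -0.37 in LynAKO and -0.25 in LynBKO, all past the threshold, and -0.14 in LynKO, which was not. For LPS it was -0.03 in WT and passed in no genotype. LPS exceeded R848 by 0.40 in WT and by 0.24, with overlapping groups, in LynBKO. In LynBKO Atp5mf (0.25) and Atp5pb (0.19) were also higher with LPS than with R848, without overlap. Gm12999, which overlaps Atp5if1 on the other strand, had 0 counts.

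In complex III, 3, 3, 6 and 4 of 9 nuclear members were higher after LPS and 0 were lower. Of all genes 31.5%, 30.4%, 33.9% and 31.0% were higher and 30.0%, 30.3%, 33.4% and 30.7% lower. Uqcrfs1 (ENSMUSG00000038462), the Rieske iron-sulfur subunit that passes electrons to cytochrome c1, stood at 68.5, 59.1, 56.5 and 61.6 CPM in untreated WT, 85.5, 80.3, 85.8 and 85.4 with LPS and 74.6, 64.8, 72.4 and 88.8 with R848. The LPS libraries were all above the untreated ones in WT, and the R848 libraries overlapped them. Its log2 differences for LPS were 0.47 ± 0.09 (SE), edgeR adjusted p = 0.00027 in WT, then 0.41, 0.49 and 0.50; without scaling factors they were -0.04, -0.08, -0.01 and 0.06. Uqcrc1, a core subunit, was higher in all 4 genotypes by 0.17 to 0.36, and Cyc1, which holds the haem of cytochrome c1, in LynBKO (0.25) and LynKO (0.38) on this scale. Uqcrq stood at 0.15 in WT and passed in no genotype.

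In complex IV, 2, 3, 6 and 4 of 14 nuclear members were higher after LPS and 0 were lower. Of all genes 31.5%, 30.4%, 33.9% and 31.0% were higher and 30.0%, 30.3%, 33.4% and 30.7% lower. Cox6c stood at 73.5, 67.6, 62.2 and 71.3 CPM in untreated WT and 82.3, 83.3, 86.0 and 83.2 with LPS, without overlap. Its log2 difference was 0.30 ± 0.10 (SE), edgeR adjusted p = 0.013, and 0.36, 0.41 and 0.24 in the knockouts. Cox7a2 was higher by 0.21 to 0.36, with the WT value near the threshold (edgeR adjusted p = 0.049). The regulatory subunit Cox4i1 stood at 0.06, the supercomplex factor Cox7a2l at -0.07 and Ndufa4, a complex IV subunit despite its name, at -0.04 in WT, and none of the 3 passed in any genotype. The muscle isoform Cox7a1 stood at 2.64 CPM per kb in untreated WT and had no call.

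Complex II, which also runs in the tricarboxylic acid cycle, had its iron-sulfur subunit lower and its flavin subunit level. Sdhb (ENSMUSG00000009863) stood at 101, 109, 98.6 and 100.4 CPM in untreated WT, 84.0, 77.0, 83.2 and 84.4 with LPS and 89.9, 85.7, 76.9 and 94.6 with R848. Every treated library lay below every untreated one. The log2 differences for LPS were -0.30 ± 0.08 (SE), edgeR adjusted p = 0.0021 in WT, then -0.34, -0.24 and -0.30, and for R848 -0.21, -0.34, -0.24 and -0.18; all 8 passed. Sdha, the succinate-oxidising subunit, stood at 0.10, 0.08, 0.05 and 0.01 for LPS and did not pass. Of the membrane anchors, Sdhd was lower in WT (-0.18 for LPS, -0.19 for R848) with no call in the knockouts, and Sdhc was higher with LPS in LynBKO (0.16 relative to the typical gene).

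Complex I was split. After LPS 1, 0, 5 and 3 of its 36 nuclear members were higher and 6, 2, 2 and 2 lower, with medians of -0.07, -0.06, 0.03 and -0.01. Of all genes 31.5%, 30.4%, 33.9% and 31.0% were higher and 30.0%, 30.3%, 33.4% and 30.7% lower. Ndufv3 (ENSMUSG00000024038), a subunit of the NADH-oxidising module that is made in a long and a short form, stood at 44.6, 37.9, 39.4 and 40.5 CPM in untreated WT, 36.8, 26.8, 25.0 and 29.6 with LPS and 27.4, 26.3, 27.7 and 32.6 with R848. Both treated groups lay wholly below the untreated one. Its log2 difference for LPS was -0.45 ± 0.11 (SE), edgeR adjusted p = 0.0021 in WT, then -0.38, -0.45 and -0.33. Its partners in that module, Ndufv1 and Ndufv2, stood at -0.12 and -0.20 in WT and passed in no genotype for LPS. The only nuclear complex I member called higher in WT was Ndufs4, an accessory subunit whose loss causes Leigh-like disease in mice, at 20.1 ± 1.57 CPM untreated and 24.6 ± 1.56 with LPS (0.31 ± 0.11 (SE), edgeR adjusted p = 0.02; without scaling factors it was below 0). It was also higher in LynBKO (0.29) and LynKO (0.26). Lower in WT were also Ndufs7 (-0.31) and Ndufs8 (-0.28), which carry iron-sulfur clusters of the arm that reduces ubiquinone.

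Among the 7 mitochondrially encoded members with high counts, mt-Nd5 and mt-Co1 passed in all 4 genotypes after LPS. mt-Nd5 (ENSMUSG00000064367), a proton-pumping subunit of complex I, stood at 1106, 1229.7, 1397 and 1025 CPM in untreated WT and 1311, 1657, 1965 and 1268 with LPS. Mouse 3 was highest and the groups overlapped. Its log2 differences were 0.40 ± 0.16 (SE), edgeR adjusted p = 0.041 in WT, then 0.37, 0.27 and 0.35; without scaling factors all 4 were below 0. mt-Co1 (ENSMUSG00000064351), the catalytic core of complex IV, stood at 7117, 7591, 7849.8 and 7369.8 CPM in untreated WT and 7544, 9348, 10391 and 8544 with LPS. The WT groups overlapped through mouse 1, while in each knockout all LPS libraries were above the untreated ones. Its differences were 0.27 (edgeR adjusted p = 0.045), 0.31, 0.25 and 0.23, and were negative without scaling factors. The 2 mitochondrial calls in WT became 1 without mouse 1, 0 without mouse 2, 0 without mouse 3 and 2 without mouse 4.

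In LynBKO all 7 mitochondrial members with high counts passed: mt-Nd6 (0.40), mt-Nd4 (0.28), mt-Nd1 (0.27), mt-Nd5 (0.27), mt-Co1 (0.25), mt-Nd2 (0.22) and mt-Cytb (0.19). Of these, mt-Nd4 and mt-Co1 share 59.2% and 23.6% of their windows with the chromosome 1 copy, so part of their reads may be lost as well. Whether the LPS response of LynBKO differed from that of WT was tested for each gene, and 0 members passed. mt-Nd6, the only mitochondrial member transcribed from the light strand, stood at 0.07 in WT and did not pass there. As the strand setting of the counting step is not given, its counts may include reads from RNA of the other strand. Of the 6 members with few counts, mt-Co3 passed in LynAKO (0.62) and mt-Nd4l in LynKO (0.87); mt-Nd3, mt-Co2, mt-Atp6 and mt-Atp8 had no call, at 0.06, 0.22, 0.30 and 0.09 in WT.

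**Figure D3:**
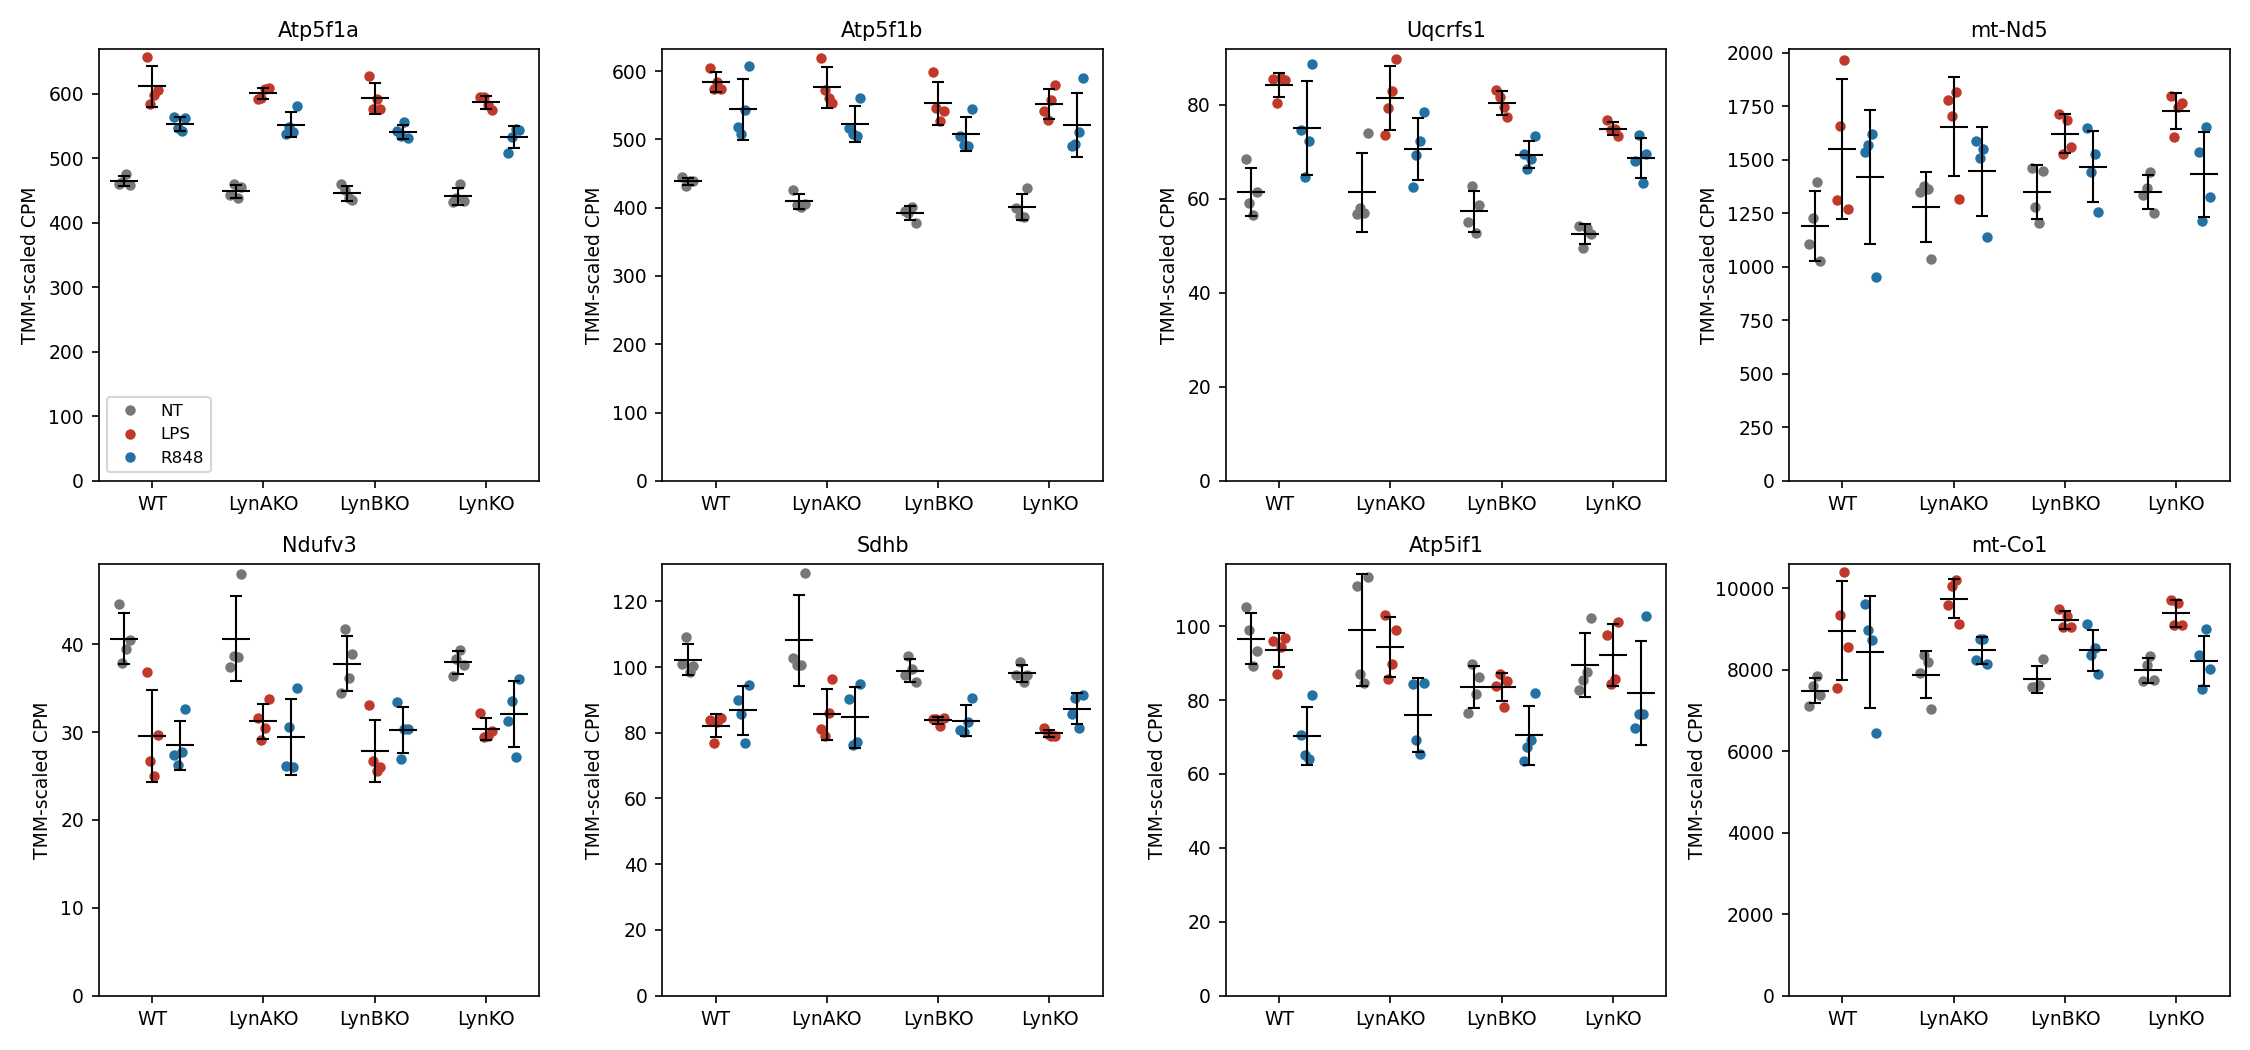
TMM-scaled CPM of 8 members in each library (points), by group of 4 libraries, with mean ± SD. Relative to the typical gene, Atp5f1a and Atp5f1b are higher with both ligands in all genotypes and Ndufv3 and Sdhb lower, Atp5if1 is lower with R848 in 3 genotypes, and mt-Nd5 and mt-Co1 are higher with LPS; without scaling factors Atp5f1a, mt-Nd5 and mt-Co1 lie below 0 in all 4 genotypes and Atp5f1b with LPS between -0.09 and 0.01.

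With R848 the catalytic head of ATP synthase was again higher relative to the typical gene. Of the 36 nuclear subunits of complex I, 11, 12, 7 and 1 were lower in WT, LynAKO, LynBKO and LynKO (30.6%, 33.3%, 19.4% and 2.78%), shares near or below those of all genes. In WT 4 nuclear members were higher and 15 lower relative to the typical gene, beside 30.0% and 26.7% of all genes. The counts were 4 and 15 in LynAKO (all genes 29.0% and 26.9%), 12 and 10 in LynBKO (31.3% and 32.2%) and 10 and 2 in LynKO (28.4% and 27.0%). No mitochondrially encoded member passed in any genotype, but without mouse 4 the number was 2, 1, 2 and 1 in WT, LynAKO, LynBKO and LynKO, and with mouse as a block it was 1, 2 and 1 in WT, LynAKO and LynKO. Without scaling factors 4 of 4, 3 of 4, 11 of 12 and 7 of 10 of the higher members were below 0. The nuclear median was -0.13, -0.12, -0.02 and 0.04 and the mitochondrial one -0.02, 0.00, 0.04 and 0.02. With each replicate number left out in turn the called members numbered 16, 12, 13 and 18 in WT, 10, 9, 6 and 28 in LynAKO, 14, 13, 18 and 22 in LynBKO, and 8, 4, 5 and 21 in LynKO. With mouse as a block they were 30 in WT, 38 in LynAKO and 21 in LynKO.

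Of the 15 members lower in WT with R848, 11 were complex I subunits, and complex I had 12, 7 and 1 lower members in LynAKO, LynBKO and LynKO. Ndufs7 (ENSMUSG00000020153), which carries the last iron-sulfur cluster before ubiquinone, stood at 73.3, 62.2, 58.4 and 64.2 CPM in untreated WT and 47.2, 43.4, 33.6 and 49.4 with R848. All R848 libraries were below the untreated ones. The log2 difference was -0.54 ± 0.12 (SE), edgeR adjusted p = 0.001 in WT, -0.41 in LynAKO and -0.30 in LynBKO, and -0.19 in LynKO, which did not pass. Ndufa8, an accessory subunit, was at 85.6, 81.8, 77.4 and 84.9 CPM untreated and 64.5, 61.4, 55.0 and 65.5 with R848 in WT, without overlap, and was lower by 0.39, 0.34 and 0.26 on the log2 scale in WT, LynAKO and LynBKO. Ndufv3 was lower in all 4 genotypes (-0.48, -0.45, -0.32 and -0.26). Ndufs1, the largest complex I subunit with several iron-sulfur clusters, went the other way: it stood at 57.2, 65.4, 64.5 and 63.2 CPM untreated and 74.2, 67.0, 76.2 and 76.5 with R848, without overlap, and was higher relative to the typical gene by 0.26 in WT, 0.22 in LynAKO and 0.17 in LynKO. For LPS its value in WT was 0.08 and it passed in no genotype.

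Outside complex I, R848 left Atp5f1a and Atp5f1b higher in all 4 genotypes and Sdhb lower in all 4, against 23.7% and 19.3% of all genes higher and lower in all 4. Atp5f1a had log2 differences of 0.28, 0.31, 0.28 and 0.26 relative to the typical gene, all of them below 0 without scaling factors. Uqcrfs1 was higher in WT (0.32), LynBKO (0.28) and LynKO (0.37). Uqcr11, a small complex III subunit, was lower in WT (-0.31) and LynAKO (-0.39). No complex IV member passed in WT or LynAKO. No call was made in any genotype for 59 members, against 26.2% of all genes.

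With TMM scaling the direct comparison of the ligands had calls in 1 direction. LPS exceeded R848 for 3, 3, 14 and 2 members in WT, LynAKO, LynBKO and LynKO, and 0 members were lower, beside 10.9%, 9.7%, 14.2% and 9.73% of all genes higher and 10.0%, 7.92%, 12.3% and 6.13% lower. All of these members were above 0 without scaling factors too, but the calls made without scaling factors were 1 higher and 3 lower in WT, 0 and 1 in LynAKO, 2 and 1 in LynBKO and 0 and 5 in LynKO. In WT they were Ndufa5 (0.42), Atp5if1 (0.40) and Ndufa12 (0.31). In the knockouts 7 of the 13 mitochondrial members were among them: mt-Nd4 stood 0.32 and 0.31 higher in LynAKO and LynBKO, mt-Cytb 0.27 and 0.23 higher, and mt-Nd5 0.28 and mt-Co1 0.20 higher in LynKO. The median over the 94 members was 0.12, 0.13, 0.14 and 0.06. With each replicate number left out in turn the counts were 3, 3, 2 and 3 in WT, 0, 0, 0 and 22 in LynAKO, 8, 5, 3 and 20 in LynBKO, and 0, 0, 1 and 17 in LynKO, and in the 3 knockouts the largest counts came without number 4. With mouse as a block they were 15 in WT, 25 in LynAKO and 7 in LynKO. No member passed in all 4 genotypes.

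Summing the members by genome compared nuclear with mitochondrial expression in each library. Such sums weight abundant genes most. mt-Co1 alone stood at a mean of 7482 CPM in untreated WT, more than all other mitochondrial members together, and the members with few counts add almost nothing. In WT the nuclear sum was 7069, 6423, 6169.8 and 6609 CPM in the untreated libraries, 7516, 6575, 6709 and 7055 with LPS and 6332, 6026, 5886 and 7092 with R848, and the 3 groups overlapped. The mitochondrial sum was 12743, 13437, 14127 and 12938 CPM untreated, 12809.9, 16377, 18472 and 14718 with LPS and 15799, 15399, 15259 and 11015 with R848. The LPS library of mouse 1 and the R848 library of mouse 4 were low, and these groups overlapped too. In LynAKO, LynBKO and LynKO every LPS library exceeded every untreated one in the mitochondrial sum, with ratios of means of 1.21, 1.19 and 1.19 on the TMM scale. The nuclear sum with LPS was 1.14 times the untreated one in LynBKO and 1.10 times in LynKO, also without overlap, and 1.07 times in LynAKO with overlap. For R848 the mitochondrial ratios were 1.08, 1.04, 1.06 and 1.03 and the nuclear ones 0.964, 0.979, 1.03 and 1.07 in WT, LynAKO, LynBKO and LynKO, all with overlap.

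As shares of the library the same sums were lower with ligand. The nuclear sum with LPS was 0.749, 0.763, 0.805 and 0.805 times the untreated one in the 4 genotypes, and with R848 0.763, 0.777, 0.807 and 0.859 times, with no overlap in any. The ratio of the mitochondrial to the nuclear sum does not depend on scaling. It was 2.04 ± 0.207 (SD, n = 4) in untreated WT, 2.26 ± 0.46 with LPS and 2.30 ± 0.499 with R848. In LynKO it was 2.47 ± 0.0783 untreated and 2.66 ± 0.089 with LPS, and these were the only LPS and NT groups of a genotype that did not overlap. Untreated LynKO libraries (2.37 to 2.54) all lay above untreated WT ones (1.80 to 2.29).

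**Figure D4:**
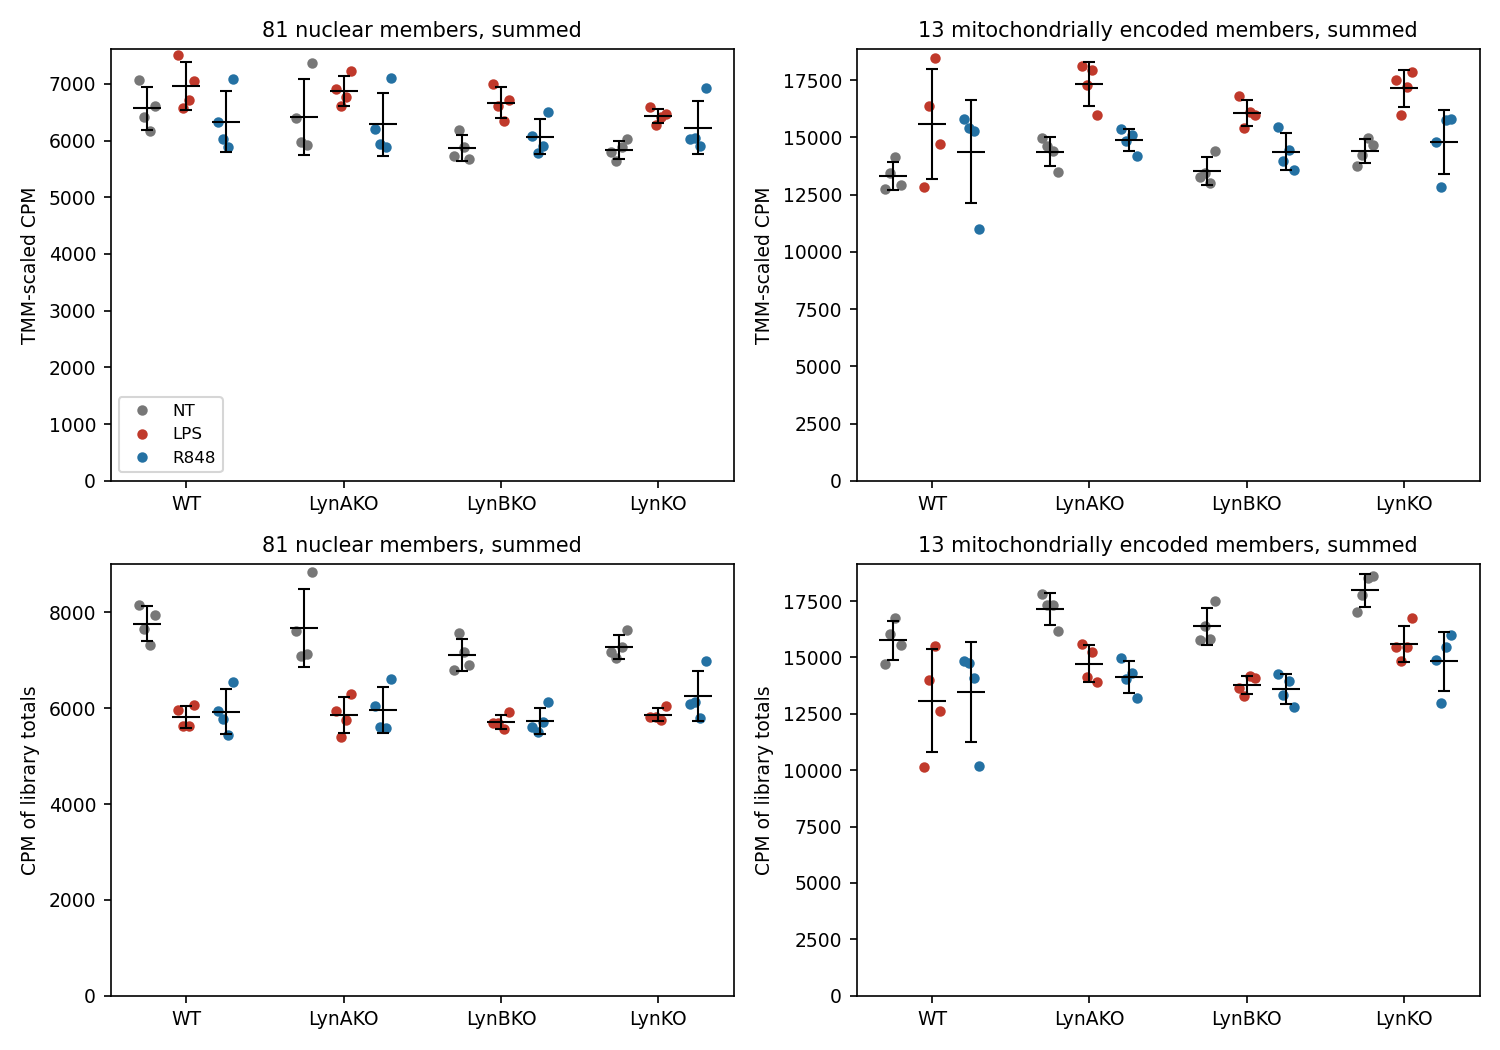
Summed CPM of the nuclear members (left) and of the mitochondrially encoded members (right) in each library (points), with the mean ± SD of each group of 4, on the TMM scale (top) and as CPM of library totals (bottom). On the TMM scale the mean LPS sums lie above the untreated means, whereas on library totals all nuclear sums with ligand lie below the untreated sums of the same genotype.

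Sums by complex also weight abundant genes most. In complex V, Atp5f1a and Atp5f1b stood at 465 and 439 CPM in untreated WT, and the next member, Atp5pb, at 137. Ratios of the complex V sum therefore do not describe each member. The nuclear members of complex V summed to 1.16, 1.18, 1.24 and 1.21 times the untreated level with LPS in WT, LynAKO, LynBKO and LynKO on the TMM scale, with no overlap in any genotype. With R848 the ratios were 1.05, 1.07, 1.12 and 1.15, without overlap in LynBKO and LynKO. For complex I the LPS ratios were 0.942, 0.952, 1.02 and 0.993 and the R848 ratios 0.865, 0.877, 0.938 and 0.989, all with overlap.

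Loss of a single Lyn isoform gave no call among the members with the filter on low counts and TMM scaling, and with no filter 14 were called in untreated LynBKO. Against WT, 0 of 94 passed in LynAKO and 0 in LynBKO under any treatment, where 0.0286%, 0.0215% and 0.00715% of all genes passed in either direction in LynAKO (NT, LPS and R848) and 0.0644%, 0.0358% and 0.0% in LynBKO. By edgeR at an unadjusted p under 0.05, 4, 3 and 0 members passed in LynAKO and 33, 4 and 4 in LynBKO. All 33 in untreated LynBKO were nuclear and lower, and DESeq2 called 2 of the members there, Atp5f1b and Sdhd, and 0 in the other 5 of these comparisons. The nuclear median in untreated LynBKO was -0.18 and the mitochondrial one 0.05, against 0.01 over all genes. The share of all genes at the unadjusted threshold, or with no filter, is not given here. The 33 and the 14 therefore cannot be set against such a share.

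In the absence of both isoforms 8 members passed without ligand, 1 higher and 7 lower, beside 5.43% and 4.47% of all genes. The lower ones were Cox8a of complex IV, Sdhd of complex II and the complex I subunits Ndufs7, Ndufb3, Ndufa6, Ndufc2 and Ndufa7. Cox8a stood at 141, 111, 109 and 117 CPM in WT and 90.1, 92.8, 88.2 and 93.8 in LynKO, with a log2 difference of -0.38 ± 0.09 (SE), edgeR adjusted p = 0.0079. Ndufb3 stood at 42.4, 35.5, 35.9 and 39.4 CPM in WT and 31.3, 26.2, 24.4 and 32.6 in LynKO (-0.41 ± 0.11 (SE), edgeR adjusted p = 0.022). Neither pair of groups overlapped, nor did those of the other 5, at -0.40 (Ndufs7), -0.39 (Ndufc2), -0.38 (Ndufa6), -0.32 (Ndufa7) and -0.25 (Sdhd). The higher one was mt-Co3 (0.79), whose sequence is shared with the chromosome 1 copy. The median was -0.18 over nuclear members and 0.19 over mitochondrial ones, against 0.00 over all genes. Without scaling factors, which moved all genes by 0.06, 3 members were called higher and 4 lower.

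The number of calls in untreated LynKO was not stable: it was 2 without WT mouse 1 or WT mouse 4, 3 without LynKO mouse 2 or 3, 5 without LynKO mouse 1, LynBKO mouse 3 or LynBKO mouse 4, and 14 without LynAKO mouse 4. DESeq2 called 11, and edgeR with no filter on low counts 19. Summed markers of macrophages stood at 39719 CPM in untreated WT and 26246 in untreated LynKO; their part in these differences was not tested. With LPS 1 member passed, Ndufb3 (-0.27 ± 0.08 (SE), edgeR adjusted p = 0.049), beside 8.49% of all genes called either way, and with 1 library left out it was 0 without WT mouse 1 or 4, LynAKO mouse 3, LynBKO mouse 2, 3 or 4, or LynKO mouse 2, 3 without WT mouse 2 or 3, and 4 without LynAKO mouse 4. DESeq2 called 8 and the fit with the replicate number as a block 5; without scaling factors, which moved all genes by 0.10, 4 were higher and 0 lower. With R848 0 passed (5.93% of all genes), 3 at an unadjusted p under 0.05 by edgeR, and 1 passed with no filter. The nuclear median was -0.02 with R848. The ligand responses of the knockouts minus those of WT gave 0 calls among the members in all 6 contrasts by edgeR and by DESeq2, where 0.0% to 0.193% of all genes passed, with 0 to 10 members at an unadjusted p under 0.05. The largest number, 10, was for R848 in LynKO, again without the share of all genes at that threshold.

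Several other genes of the pathway had larger differences than any subunit. Of the nuclear regulators of mitochondrial biogenesis all 10 tested were called higher with LPS in each genotype (medians 1.21, 1.08, 1.13 and 1.04 relative to the typical gene), of which 1, 1, 1 and 2 lay below 0 without scaling factors, Yy1 among them in every genotype. With R848 8, 8, 8 and 8 of 10 were higher and 1, 1, 1 and 0 lower, with 0 of the higher ones below 0 without scaling factors. Of all genes, 30.4% to 33.9% were called higher with LPS over the 4 genotypes. With R848 28.4% to 31.3% of all genes were called higher and 26.7% to 32.2% lower. Ppargc1b (PGC-1beta), a coactivator of oxidative genes, stood at 1.49, 1.58, 1.64 and 1.57 CPM in untreated WT, 4.69, 5.06, 3.58 and 3.99 with LPS and 0, 1.10, 0.921 and 0.217 with R848, where a count of 0 allows up to 3 counts. Its log2 differences were 1.47, 1.96, 1.42 and 2.66 for LPS, all past the threshold and above 0 on both scales, and -1.45, -1.28 and -2.78 for R848 in WT, LynAKO and LynBKO, again past it. The value for R848 in LynKO, -0.61, did not pass. Its counts are low, and its LPS and R848 values share the same untreated libraries.

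AA467197 (Nmes1), a paralogue of Ndufa4 known to rise in inflammation and to take its place in complex IV, had the largest increase with LPS among the called genes of these lists. It stood at 3.39, 2.23, 2.75 and 2.81 CPM in untreated WT, 97.6, 64.6, 84.0 and 78.4 with LPS and 12.6, 12.5, 18.8 and 23.9 with R848. The 3 groups did not overlap, and LPS was above R848. The log2 differences for LPS were 4.87 ± 0.21 (SE), edgeR adjusted p = 6.8e-13 in WT, then 4.62, 4.87 and 4.20, and for R848 2.62, 2.27, 2.75 and 2.10; all were above 0 without scaling factors. Ndufa4 itself stood at 64.8, 65.5, 57.3 and 62.5 CPM in untreated WT and 55.9, 64.1, 61.1 and 59.7 with LPS. Its groups overlapped and it had no call.

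Among the assembly factors of the complexes, lower calls outnumbered higher calls in each of the 8 comparisons with NT. Of 49 assembly factors tested, 8, 7, 8 and 10 were higher and 20, 17, 19 and 17 lower with LPS in WT, LynAKO, LynBKO and LynKO, and 4, 5, 5 and 8 higher and 22, 20, 23 and 18 lower with R848. These were 14.3% to 20.4% higher and 34.7% to 40.8% lower with LPS, and 8.16% to 16.3% and 36.7% to 46.9% with R848. Of all genes, 30.4% to 33.9% were called higher and 30.0% to 33.4% lower with LPS, and 28.4% to 31.3% and 26.7% to 32.2% with R848. Of the higher ones with LPS 4, 1, 4 and 5 were below 0 without scaling factors. Bcs1l, which inserts the Rieske subunit into complex III, was lower with LPS by 1.23 in WT on the log2 scale. Of 78 mitochondrial ribosomal proteins, which translate the mitochondrial members, 12, 15, 21 and 19 were higher and 26, 25, 22 and 19 lower with LPS. With R848 9, 8, 16 and 14 were higher and 30, 27, 33 and 12 lower. These were 15.4% to 26.9% higher and 24.4% to 33.3% lower with LPS, and 10.3% to 20.5% and 15.4% to 42.3% with R848. Without scaling factors 7, 9, 16 and 13 of the higher ones with LPS lay below 0.

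Among 31 genes for transcription, replication and RNA handling of mitochondrial DNA, 7, 8, 8 and 8 were higher and 13, 10, 11 and 9 lower with LPS, and 5, 6, 7 and 7 higher and 11, 10, 12 and 6 lower with R848. These were 22.6% to 25.8% higher and 29.0% to 41.9% lower with LPS, and 16.1% to 22.6% and 19.4% to 38.7% with R848. Of all genes, 30.4% to 33.9% were called higher and 30.0% to 33.4% lower with LPS, and 28.4% to 31.3% and 26.7% to 32.2% with R848. The mitochondrial RNA polymerase Polrmt was lower with LPS by 0.86 and the replicative helicase Twnk by 1.43 in WT on the log2 scale. Pnpt1, the mitochondrial polynucleotide phosphorylase and a known interferon-response gene, was higher with LPS by 1.35, 1.52, 1.34 and 1.22 in the 4 genotypes, above 0 on both scales. Of 15 mitochondrial tRNAs and other RNAs, poorly captured by poly(A) selection, 0, 1, 2 and 1 were higher and 0 lower with LPS; with R848 1 was lower in WT and 1 higher in LynBKO.

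Of 23 carriers and genes for cytochrome c and ubiquinone, 4, 4, 5 and 5 were higher and 9, 10, 8 and 8 lower with LPS, and 4, 4, 5 and 3 higher and 10, 9, 9 and 6 lower with R848. In percent, 17.4% to 21.7% were higher and 34.8% to 43.5% lower with LPS, and 13.04% to 21.7% and 26.1% to 43.5% with R848. Among all genes tested, 30.4% to 33.9% were called higher and 30.0% to 33.4% lower with LPS. The R848 shares of all genes were 28.4% to 31.3% higher and 26.7% to 32.2% lower. Cycs, cytochrome c, stood at 51.3, 59.2, 54.1 and 47.0 CPM in untreated WT, 114, 118, 110.3 and 108 with LPS and 77.1, 81.2, 86.8 and 99.1 with R848. Neither treated group overlapped the untreated one. Its log2 differences were 1.10, 1.19, 1.20 and 0.90 for LPS and 0.73, 0.75, 0.87 and 0.62 for R848, all past the threshold and above 0 on both scales. Ucp2, an inner-membrane carrier of macrophages, was lower with LPS by 0.47 in WT. Of 23 genes of the tricarboxylic acid cycle, 8, 10, 9 and 7 were higher and 4, 2, 3 and 3 lower with LPS, and 8, 6, 9 and 6 higher and 4, 5, 4 and 2 lower with R848. These were 30.4% to 43.5% higher and 8.7% to 17.4% lower with LPS, and 26.1% to 39.1% and 8.7% to 21.7% with R848. Without scaling factors 5, 7, 6 and 5 of the higher ones with LPS lay below 0. Cs, citrate synthase, often used as a measure of mitochondrial content, was higher by 0.56 with LPS in WT relative to the typical gene and 0.05 without scaling factors.

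**Figure D5:**
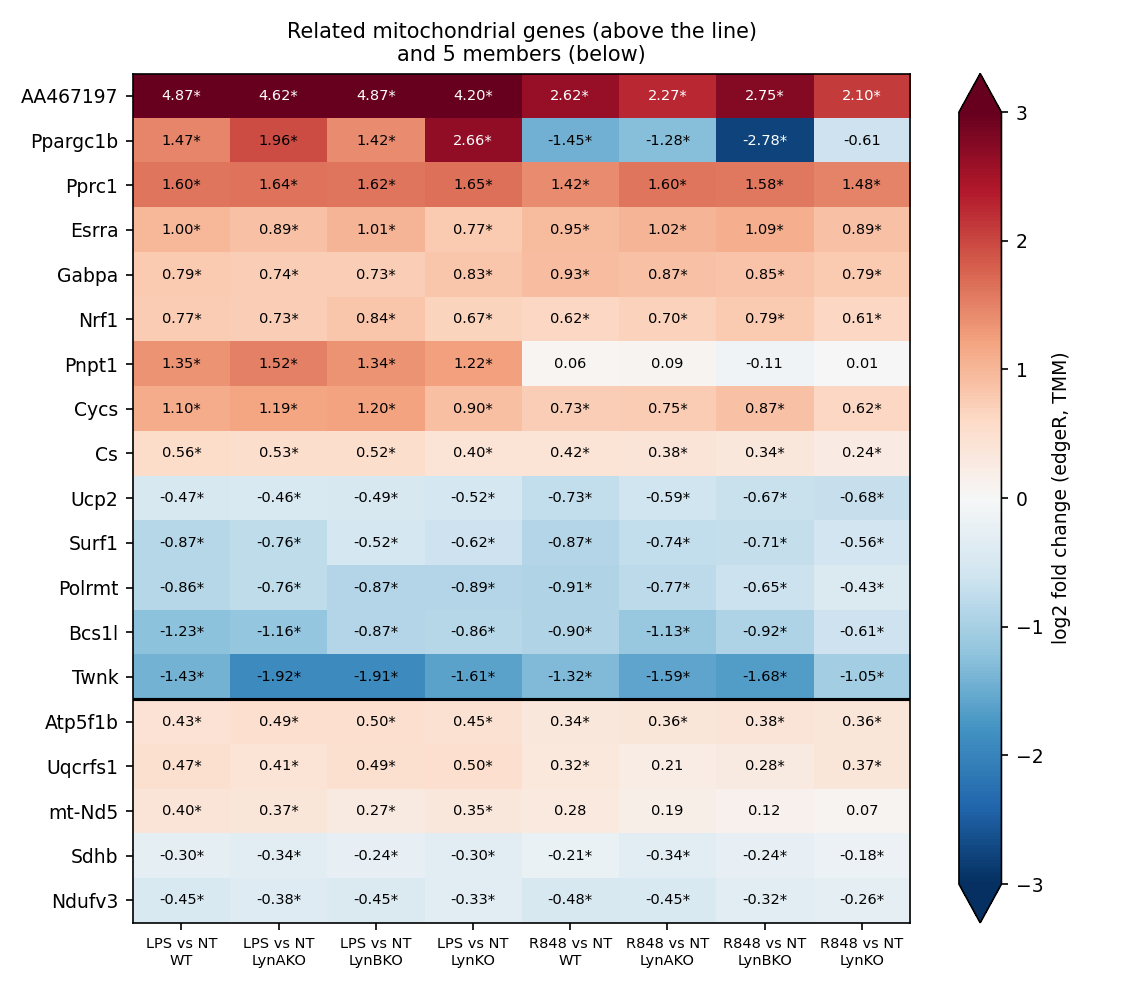
Log2 differences (TMM scale) of 14 other genes of the pathway above the line and 5 members below it, in the 8 comparisons of a ligand with NT; colour is capped at 3 either way and an asterisk marks an adjusted p under 0.05. AA467197 is highest in every column and the members are paler than most of the genes above; without scaling factors Atp5f1b lies between -0.09 and 0.06 and Cs between -0.06 and 0.05.

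Markers of other cell types were low and also moved with the ligands. The 9 neutrophil markers summed to 3.83 CPM in untreated WT, 13.3 with LPS and 12.9 with R848, the 6 dendritic cell markers to 0.801, 8.34 and 8.02, and the 7 stromal markers to 1.70, 15.5 and 7.31. The 4 megakaryocyte markers summed to 9.32, 30.0 and 38.3 CPM. Over all 48 libraries the sums of T and NK cell markers were at most 1.59 CPM, of B cell markers 5.02, of erythroid markers 0.50 and of mast cell, basophil or eosinophil markers 2.78. All 9, 6, 7 and 4 markers of the first lists had a count somewhere, against 3 of the 6 erythroid ones. Their part in the differences of the respiratory chain genes was not tested.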

How the data were processed

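Poly(A)-selected RNA of 48 macrophage libraries was sequenced as paired reads. The submitters' processing notes name Trimmomatic 0.36, STAR 2.5.2b, featureCounts (Subread 1.5.2), DESeq2 and the build GRCm38, without parameters. The deposited gene counts are whole numbers and not normalized. The other deposited table gives variance-stabilised expression, in log2 units judging by its values, and served only to choose the members. Which normalization the authors applied before that transformation is not given in the sources used here.

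Counts were tested with edgeR 4.0.16 (limma 3.58.1, R 4.3.3): TMM scaling, filterByExpr (minimum count 10, minimum total 15) over the 12 groups, leaving 13986 of 49315 genes, the quasi-likelihood test, and Benjamini-Hochberg adjustment over all genes tested at 0.05. Each fit for a ligand held the 12 libraries of its genotype, each fit for a genotype the 16 of its treatment, and contrasts of responses all 48, making 27 comparisons. Levels are TMM-scaled CPM with SD over 4 libraries, and differences are log2 values with SE. Summed levels have no test. Depth was 14974764 to 23321447 counts per library, and intervals of counts would cover counting error only.

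The members, gene lists and marker lists were chosen with earlier results of these data known. Named with values are every mitochondrially encoded member, up to 3 nuclear members each way per comparison and complex with the largest called difference, chosen members of known interest (the Sdh genes, Ndufa4, Cox4i1, Cox7a1, Cox7a2l, Atp5if1, Ndufs4, Uqcrq), and selected genes of the other lists; of the second kind, those described are the ones recurring over genotypes, and the remainder are given as counts. The lists were nuclear regulators of biogenesis, the Ndufa4 paralogue, assembly factors, mitochondrial ribosomal proteins, genes handling mitochondrial DNA and RNA, mitochondrial RNAs other than mRNA, carriers with cytochrome c and ubiquinone genes, and the tricarboxylic acid cycle.

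Per the series design, replicates are cells from 4 mice per genotype, differentiated and treated independently. Same-numbered libraries of a genotype were taken as the same mouse where their sex labels agreed (WT, LynAKO and LynKO; in LynBKO numbers 2 and 3 carry exchanged labels in NT). Over the 48 pairs of libraries within a genotype, 41 had deviations from the group means correlated above 0.1. Across genotypes 26 of 36 did, short of every pair, and the labels name no shared litter, batch or day, so these numbers were not taken as pairs. Alternatives were DESeq2 1.42.0, other size factors, no filter on low counts, mitochondrial genes left out of library totals, a replicate block, leaving out each replicate or the 2 libraries with transcripts of both sexes, and, added after seeing the data, no scaling factors. The tests were checked on simulated counts. Shared 150-base windows and overlaps were found in the GENCODE M21 transcripts (GRCm38), and promoters came from RefSeq.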

Additional observations from a re-analysis of the deposited data

Results flagged for a closer look

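Of the 36 group sums and ratios examined, 5 held a library far from the other 3 by Dixon's test, which chance alone would give in about 1 of 20 groups. All 5 were libraries of mouse 4, of different genotypes. The summed nuclear members stood at 6926 CPM in LynKO with R848, above the other 3 libraries of its group. The summed mitochondrial members stood at 11015 CPM in WT with R848, below the others. The ratio of the mitochondrial to the nuclear sum was 1.55 in that WT library, 2.21 in LynAKO with LPS and 2.00 in LynAKO with R848, each below the other 3 of its group. In the 3 knockouts the counts of members called between LPS and R848 were highest with replicate number 4 left out. What sets these libraries apart was not tested.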

How the results depend on the processing

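Without scaling factors (added after seeing the data) the members called with LPS against NT were 78, 74, 74 and 70 in WT, LynAKO, LynBKO and LynKO and with R848 75, 73, 77 and 51, all lower, because the median gene itself moves; LPS against R848 gave 1 in LynAKO (lower), 3 in LynBKO (2 higher, 1 lower) and 5 in LynKO (lower), and LynKO against WT with LPS 4. On library totals the log2 ratios of the nuclear sum were -0.42, -0.39, -0.31 and -0.31 with LPS and -0.39, -0.36, -0.31 and -0.22 with R848, and those of the mitochondrial sum -0.27, -0.22, -0.25 and -0.20 with LPS and -0.23, -0.28, -0.27 and -0.28 with R848. Over all called genes the share called higher was 49.3% to 52.9% with TMM and 23.1% to 26.8% without scaling factors for a ligand against NT, 52.2% to 61.3% and 25.8% to 27.4% for LPS against R848, and for LynKO against WT 54.9%, 52.2% and 53.8% (NT, LPS, R848) and 72.6%, 82.1% and 83.0%. Subtracting the shift of all genes from the values without scaling factors largely restores the TMM values by construction. That each of the 746 gene-level results then kept its direction and its side of the threshold is therefore no separate check.

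With the replicate block the counts were 37 (LPS) and 38 (R848) in LynAKO, 37 and 21 in LynKO and 30 with R848 in WT; LPS against R848 gave 15 in WT, 25 in LynAKO and 7 in LynKO. Across genotypes within a treatment the block was the replicate number. Same-numbered libraries there also share a sex label except numbers 2 and 3 of untreated LynBKO, and 26 of 36 correlated best with their own number. This block gave 5 for LynKO against WT with LPS. In the contrasts of responses the block was the mouse, by genotype and replicate number. It gave 1 for the R848 response of LynKO against that of WT. No other count changed by over 1.5 times. With no filter on low counts the counts were 12 for LPS in WT, 6 for R848 in LynKO, 8, 6 and 4 for LPS against R848 in WT, LynAKO and LynKO, 14 for untreated LynBKO, and 19, 4 and 1 for LynKO against WT (NT, LPS, R848). DESeq2 gave 9 and 4 for LPS against R848 in WT and LynKO, 2 for untreated LynBKO and 8 for LynKO with LPS, and RLE size factors gave 2 there. Without the 2 libraries holding transcripts of both sexes LPS against R848 in LynKO gave 1. The causes of these differences were not tested.

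With each replicate left out in turn the counts ranged from 7 to 17 (WT), 9 to 28 (LynAKO), 20 to 36 (LynBKO) and 14 to 37 (LynKO) for LPS, from 12 to 18, 6 to 28, 13 to 22 and 4 to 21 for R848, and from 2 to 3, 0 to 22, 3 to 20 and 0 to 17 for LPS against R848. They ranged from 2 to 14 for untreated LynKO against WT and from 0 to 4 with LPS. The counts of 0 over all members in the genotype comparisons and contrasts of responses stayed 0 with any 1 replicate left out. Of 746 gene-level results, DESeq2 left 734 on the same side of the threshold, RLE size factors 739, the block 708, no filter 691, and leaving mitochondrial genes out of library totals 746; none reversed. The 6 mitochondrial members with few counts, and Cox6b2 and Ppargc1b, are those where depth limits the result.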
